A study of Mus musculus with 160 samples.

Results

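The genes described here are 7 ligands of the EGF family, *Areg* (amphiregulin), *Ereg* (epiregulin), *Epgn* (epigen), *Btc* (betacellulin), *Hbegf* (heparin-binding EGF-like growth factor), *Tgfa* (transforming growth factor alpha) and *Nrg1* (neuregulin 1), and 2 of the receptors, *Egfr* and *Erbb2*. They were taken by name from the 39179 Ensembl genes counted in each library, and all 9 were found, each under a single identifier. They were measured by RNA-seq in distal colon tissue of 160 mice of 4 gene-targeted lines, knockout and wild type, to ask whether genes predicted to drive inflammatory bowel disease change the colon in dextran sulfate sodium (DSS) colitis. DSS, dissolved in the drinking water, damages the lining of the colon. The *Nckap1l* line, called HEM1 in the labels, had 16 homozygous knockout mice (12 male and 4 female) and 15 wild-type mice (7 male and 8 female) of the strain C57BL6/J, with tissue taken on day 12 and no DSS dose in the labels. The *Dock2* line had 18 knockout mice (10 male and 8 female) and 24 wild-type mice (12 of each sex), and the *Gpsm3* line 20 male knockout and 20 male wild-type mice, all C57BL6/J, with 3% DSS and tissue taken on day 10. The *Dok3* line had 26 knockout and 21 wild-type mice of the strain 129, all labelled male, with 3.5% DSS and tissue taken on day 10. In each line DSS was given for 5 days, but the labels do not tell which mice received it, so treated and untreated mice within a group could not be told apart. Per the study's methods, the lines were existing knockouts that were re-derived with C57BL6/J females and bred from heterozygous parents, with wild-type littermates as controls. The sources name no promoter or cell type to which a deletion was limited, and the labels give no ages, while the methods describe young adult mice. The methods also say that *Nckap1l* mice received a lower DSS dose than the others, and that *Dok3* mice received in a first round a lower dose than the one in the labels, so the dose may differ between *Dok3* libraries.

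EGF family ligands are made as membrane-anchored precursors and are cut from the cell surface by metalloproteases such as ADAM17. Amphiregulin, epiregulin, epigen, betacellulin, HB-EGF and TGF-alpha bind EGFR, neuregulins bind ERBB3 and ERBB4, and ERBB2 has no known ligand of its own and pairs with the other receptors. In the intestine these receptors are best known for driving growth and repair of the epithelium after injury, and the MAP kinase signal they start also raises several of the ligands and of the inhibitors that switch the receptors off.

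Among the ligand genes, 4 lay side by side within 375.5 kb of mouse chromosome 5 (GRCm38), *Epgn* at chr5:91027464-91035215, *Ereg* at chr5:91074622-91093646 and *Areg* at chr5:91139599-91148432 on the plus strand and *Btc* at chr5:91357261-91402994 on the minus strand. *Tgfa* lay on chromosome 6, *Nrg1* on chromosome 8 and both receptors on chromosome 11, *Egfr* at chr11:16752203-16918158 and *Erbb2* at chr11:98412470-98437716. The RefSeq promoter table of GRCm38.p6, which holds 250 bases before and 50 after each start, matched 6 of the 9 genes, with *Ereg*, *Nrg1* and *Hbegf* missing. The promoters of *Areg*, *Egfr* and *Erbb2* are shown on the plus strand and 5′ to 3′. These genes are among those whose rises and fall are described below, while *Ereg*, with the steepest slopes, is not in the table. The windows are chr5:91139349-91139648 for *Areg*, chr11:16751953-16752252 for *Egfr* and chr11:98412234-98412533 for *Erbb2*. Capitals mark the motifs that were found.
Areg: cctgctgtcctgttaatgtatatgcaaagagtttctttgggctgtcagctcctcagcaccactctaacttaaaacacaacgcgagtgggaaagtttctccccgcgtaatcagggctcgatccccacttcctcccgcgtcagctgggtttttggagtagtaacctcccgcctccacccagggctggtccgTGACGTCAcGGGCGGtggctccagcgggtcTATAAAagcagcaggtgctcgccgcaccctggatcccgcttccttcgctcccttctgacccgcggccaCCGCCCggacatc
Egfr: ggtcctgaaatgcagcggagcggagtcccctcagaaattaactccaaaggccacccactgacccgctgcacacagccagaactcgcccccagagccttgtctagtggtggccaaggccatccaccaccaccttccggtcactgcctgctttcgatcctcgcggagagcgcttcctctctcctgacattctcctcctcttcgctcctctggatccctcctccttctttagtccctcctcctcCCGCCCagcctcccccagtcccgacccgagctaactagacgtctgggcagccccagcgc
Erbb2: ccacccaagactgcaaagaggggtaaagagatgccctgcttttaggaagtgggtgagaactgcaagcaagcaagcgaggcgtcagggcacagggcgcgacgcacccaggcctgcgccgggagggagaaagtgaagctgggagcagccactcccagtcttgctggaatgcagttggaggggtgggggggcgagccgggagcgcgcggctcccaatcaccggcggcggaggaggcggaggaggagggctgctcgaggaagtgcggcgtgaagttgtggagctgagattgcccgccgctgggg

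On both strands, 6 motifs were searched, the cAMP response element TGACGTCA, the AP-1 site TGANTCA, the NF-kB site GGGA-N-TTTCC, the STAT site TTCNNNGAA, the SP1 box GGGCGG and the TATA box TATAAA. The *Areg* promoter held TGACGTCA at -61, counting the start base as 0, an SP1 box at -52, TATAAA at -31 and an SP1 box on the other strand at 37, none of which overlapped. Of 32851 promoters in the table, 1.79% held TGACGTCA, 13.6% TATAAA and 35.7% an SP1 box. The *Egfr* promoter held an SP1 box at -9 and that of *Erbb2* none of the 6 motifs. *Tgfa* had 2 SP1 boxes, *Epgn* a TATA box at -86 and *Btc* no match. The AP-1, NF-kB and STAT letters, which 7.81%, 0.411% and 8.3% of all promoters held, were in none of the 6 windows. A match to letters is a description of the window and not a measured site.

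The libraries held from 4344988 to 19993833 counts on genes, with a median of 15989626, so 3 counts were worth 0.15 to 0.69 CPM, the count scaled to a common library size. Of the 160 libraries, 8 held fewer than 10000000 counts. The targeted genes were read in knockout libraries too, with medians in knockout and wild type of 14.7 and 27.2 CPM for *Nckap1l*, 22.1 and 34.2 CPM for *Dock2*, 0.575 and 3.21 CPM for *Gpsm3* and 3.18 and 3.63 CPM for *Dok3*, and the ranges overlapped in every line, so genotypes are those of the labels. In the *Gpsm3* line the ranges were 0.245 to 3.55 CPM in knockout and 0.725 to 7.55 CPM in wild type. As an alternative whose rule was set after the levels were seen, 3 of its libraries were left out, those labelled knockout above the second-lowest wild-type level and those labelled wild type below the third-highest knockout level. In the *Dok3* line 5 libraries labelled male carried female sex markers. All 11 gut epithelium markers were read at a median of at least 1 CPM, with a sum from 2699 to 15680 CPM. Markers of epidermis stood apart in 32 libraries, where 12 of them summed to 1044 to 15860 CPM against 12.5 to 86.3 CPM in the others. These libraries were 7 knockout and 8 wild type in the *Nckap1l* line, 1 and 4 in *Dock2*, 2 and 1 in *Gpsm3* and 4 and 5 in *Dok3*, and the values without them are given where they matter.

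Per kilobase of exon, the receptors were read at higher levels than most ligands. *Erbb2* came first with a median of 48.6 CPM per kb over the 160 libraries (12.8 to 82.6), and it was above *Egfr*, at 11.2 CPM per kb, in 155 of them. *Areg* was the ligand with the highest level per kilobase, with a median of 10.2 CPM per kb and a range from 3.58 to 85.1. *Egfr* and *Areg* were not separated, since *Egfr* was the higher of the pair in only 96 of 160 libraries. *Tgfa* followed at 5.40 CPM per kb, *Ereg* at 3.32, *Hbegf* at 3.03 and *Btc* at 2.43. These neighbours overlapped as well, with *Tgfa* above *Ereg* in 112 libraries, *Ereg* above *Hbegf* in 97 and *Hbegf* above *Btc* in 104. *Nrg1* at 0.835 CPM per kb and *Epgn* at 0.134 closed the order, and *Epgn* had no count at all in 14 libraries. The order was the same in the *Nckap1l*, *Dock2* and *Dok3* lines, while in *Gpsm3* the neighbours *Areg* and *Egfr*, and *Hbegf* and *Ereg*, changed places. The genes also differed in spread. *Ereg* ran from 1.83 to 427 CPM per library and *Tgfa* from 13.8 to 70.5 CPM.

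**Figure D1:**
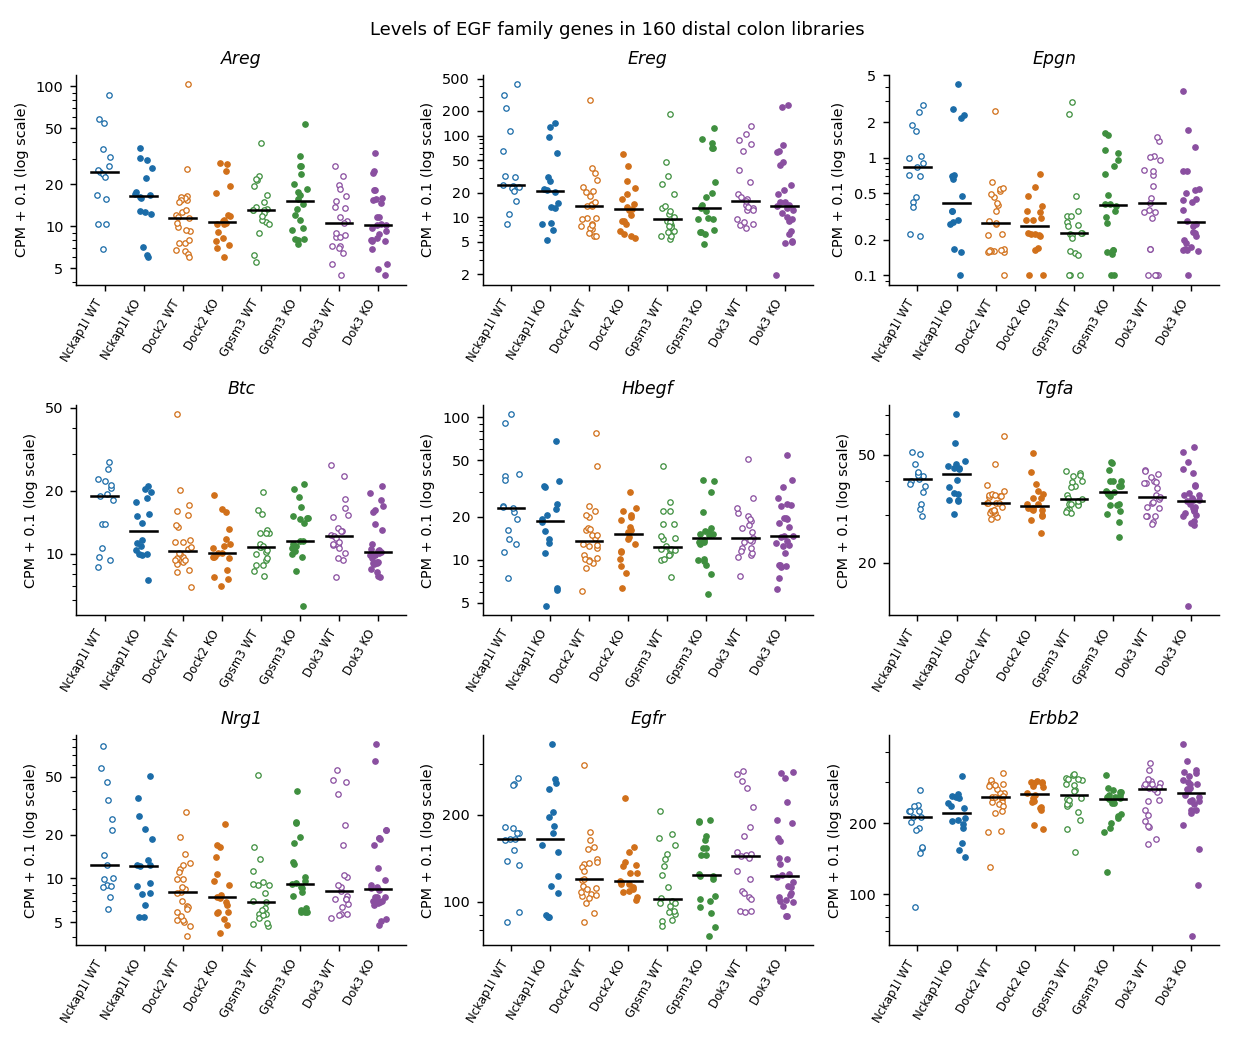
Each panel plots 1 gene, with the line and labelled genotype on the horizontal axis and CPM plus 0.1 on a log scale on the vertical axis. Points are libraries (open for wild type, filled for knockout) and black bars are medians. *Ereg* reaches 427 CPM in 1 *Nckap1l* wild-type library while the group medians lie between 9.39 and 24.5 CPM, and *Tgfa* medians stay between 32.3 and 42.4 CPM.

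The first comparison asked whether the knockouts changed these genes. In none of the 4 lines did a member pass an adjusted p of 0.05 in edgeR's quasi-likelihood test. The percentage of all genes that passed was 0.0% of 17947 in *Nckap1l*, 0.034% of 17648 in *Dock2* (0.00567% higher and 0.0283% lower), 0.00569% of 17560 in *Gpsm3* and 0.0% of 17612 in *Dok3*. All 9 members passed the filter on low counts in the *Nckap1l* line and 8 in the others, where *Epgn* did not. At an unadjusted p under 0.05 there were 2 members in *Nckap1l* and 0 in the other lines, and 807, 900, 854 and 386 genes of all tested in *Nckap1l*, *Dock2*, *Gpsm3* and *Dok3*. Over the alternatives in *Nckap1l* this number of members ran from 0 to 4. It was 0 with the run of sample numbers in the model, beside 932 of 17947 genes, and 0 with limma-voom, beside 708. It was 4 of 8 without the libraries rich in epidermis markers, beside 2357 of 17547 genes. DESeq2 and limma-voom also called 0 members in each line. For all 36 pairs of a member and a line, the knockout and wild-type ranges overlapped.

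The ligand with the largest difference was *Ereg* in the *Nckap1l* line. It ran from 8.26 CPM through a median of 24.5 to 427 CPM in the 15 wild-type libraries and from 5.21 through 20.8 to 142 CPM in the 16 labelled knockout. The knockout libraries reached less far up, though the medians lay close together. The log2 fold change was -1.24 ± 0.61 (SE; edgeR p = 0.0498, adjusted p = 1.00). It was -0.65 with the run of sample numbers in the model (p = 0.22), -0.81 with limma-voom (p = 0.19), -0.75 with 2 surrogate variables (p = 0.0035), -0.78 with the inflammation score defined below in the model (p = 0.0010) and -2.20 in males only (p = 0.0045), with adjusted p from 0.14 to 1.00. *Areg*, which like epiregulin binds EGFR, had 6.79, 24.5 and 85.7 CPM as lowest, median and highest value in wild type and 5.95, 16.3 and 36.0 CPM in knockout libraries, of which 12 of 16 lay below the wild-type median. Its log2 fold change was -0.72 ± 0.32 (SE; edgeR p = 0.0315, adjusted p = 1.00). *Hbegf* at -0.43 ± 0.37, *Nrg1* at -0.54 ± 0.39 and *Btc* at -0.21 ± 0.17 (log2 fold change ± SE) differed less in the same line, and *Epgn* at -0.010 ± 0.44 hardly at all. Without the 32 libraries rich in epidermis markers, 7 wild-type and 9 knockout libraries remained in *Nckap1l*. Nearly all libraries of the first run of sample numbers were thereby left out, and the run was not in this model. There the log2 fold change was -3.32 ± 0.83 for *Ereg*, -1.47 ± 0.49 for *Areg*, -1.78 ± 0.52 for *Nrg1* and -1.57 ± 0.57 for *Hbegf*, with an adjusted p of 0.36 for each in edgeR, and the median inflammation score was 3.45 in those wild-type and 0.324 in those knockout libraries. The part of the score in these differences was not tested there. Within all *Nckap1l* libraries, the score medians were 0.866 in wild type and 1.45 in knockout.

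In the *Dock2* line *Ereg* had 5.71, 13.5 and 276 CPM as lowest, median and highest value in wild type and 5.42, 12.4 and 59.3 CPM in knockout, for a log2 fold change of -0.51 ± 0.43. A single library set that value, since without wild-type replicate 13, the one with 276 CPM, it was 0.19. *Areg* moved likewise from -0.20 ± 0.28 to 0.21 without this library, which also held the highest *Areg* level of the series, 103 CPM. In the *Gpsm3* line the wild-type values of *Ereg* were 5.29, 9.39 and 182 CPM and the knockout values 4.63, 12.9 and 123 CPM, for a log2 fold change of 0.49 ± 0.48. With DESeq2 this value was 1.21 ± 0.38 (p = 0.0013, adjusted p = 0.59). In the *Dok3* line they were 7.23, 15.7 and 130 CPM in wild type and 1.83, 13.7 and 238 CPM in knockout, for 0.17 ± 0.47, and without knockout replicate 17, the library with the highest inflammation score, the value was -0.15. Differences of the other ligands in these 3 lines lay between -0.21 and 0.34 on the log2 scale.

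For the receptors, too, no difference passed. *Erbb2* had medians from 212 to 279 CPM over the 8 groups, and its log2 fold changes were 0.14 ± 0.13 in *Nckap1l*, 0.043 ± 0.075 in *Dock2*, -0.13 ± 0.085 in *Gpsm3* and 0.015 ± 0.12 in *Dok3* (± SE). *Egfr* had medians from 102 to 165 CPM, with log2 fold changes of 0.098 ± 0.19, -0.029 ± 0.11, 0.15 ± 0.13 and -0.12 ± 0.16 in the same order. *Tgfa*, the ligand with the narrowest range, changed by -0.033 to 0.13 with errors of 0.063 to 0.093. In a fit over all 160 libraries, 137 of 19849 genes (0.69%) had a knockout effect that differed among the lines by edgeR's F-test, none of them a member. The smallest adjusted p among members was 0.93, for *Areg*. Limma-voom called 1 gene and no member. Without the libraries rich in epidermis markers, an alternative chosen after seeing the data, *Hbegf* (adjusted p = 0.0201), *Ereg* (0.0398) and *Areg* (0.0487) passed in this test, as did 1.99% of all 19605 genes.

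**Figure D2:**
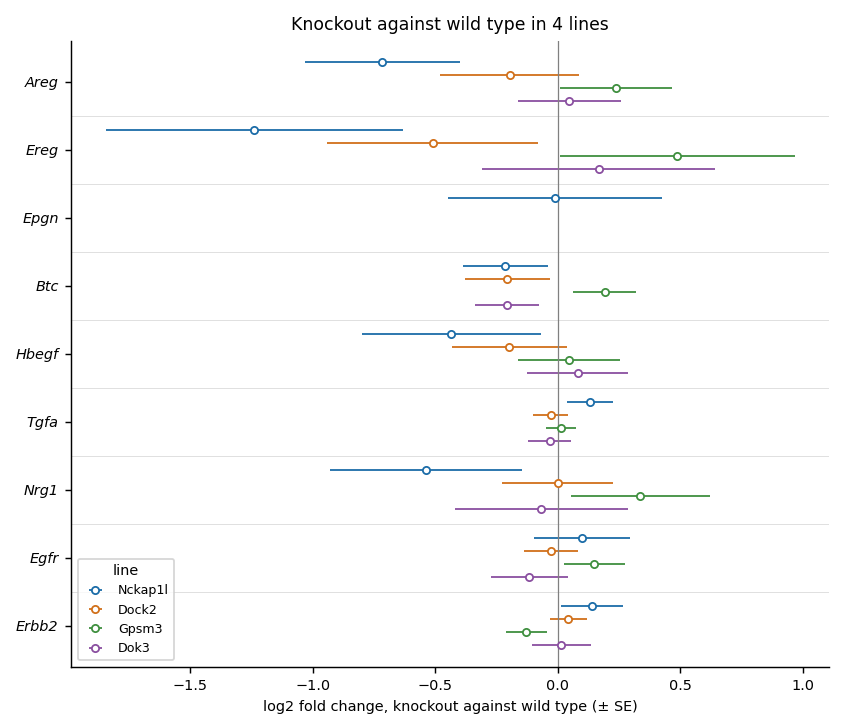
Each row is 1 gene and each colour 1 line, with the log2 fold change of knockout against wild type on the horizontal axis and bars of 1 SE. All points are open because none passed an adjusted p of 0.05, and *Epgn* is shown only for *Nckap1l*, where it passed the filter. *Ereg* in *Nckap1l* lies lowest at -1.24.

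The second comparison set the genes against inflammation. The inflammation score of a library was the mean log2 CPM of 20 neutrophil and cytokine genes, among them *S100a8*, *Il1b*, *Il6* and *Cxcl2* and no member of the family. It ran from -0.618 to 6.57 in *Nckap1l*, -0.853 to 6.13 in *Dock2*, -1.12 to 5.48 in *Gpsm3* and -1.09 to 7.84 in *Dok3*, and it was higher at its top in wild type than in knockout libraries in *Nckap1l* (6.57 and 5.34) and *Dock2* (6.13 and 3.26) and lower in *Gpsm3* (5.07 and 5.48) and *Dok3* (6.83 and 7.84). The slope of a gene is its log2 change per log2 unit of the score, with genotype, and sex where both sexes were present, in the model. Of the members, 6 rose and 1 fell in *Nckap1l*, 7 rose and 1 fell in *Dock2*, 4 rose and 1 fell in *Gpsm3* and 6 rose and 1 fell in *Dok3* (edgeR, adjusted p under 0.05). Much of the transcriptome moved as well, with 47.9%, 55.3%, 53.9% and 63.4% of all genes called in *Nckap1l*, *Dock2*, *Gpsm3* and *Dok3*, of which 23.2%, 28.3%, 27.8% and 32.9% of the tested genes rose and 24.7%, 26.9%, 26.1% and 30.5% fell. The median slope over all genes lay between -0.0013 and 0.0016 in the 4 lines.

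*Ereg* had the steepest slope of the family in every line. Its values rose with the score by 0.69 ± 0.046 in *Nckap1l*, 0.71 ± 0.050 in *Dock2*, 0.67 ± 0.047 in *Gpsm3* and 0.59 ± 0.032 in *Dok3* (slope ± SE; adjusted p from 5.25e-21 to 5.43e-13). Pearson's r between its log2 CPM and the score was 0.91, 0.83, 0.89 and 0.92, with Spearman's rho of 0.86, 0.77, 0.77 and 0.85. The permutation p was 1e-05 for each, the smallest that 100000 resamples can give, and adjusted over the 36 relations of 9 genes and 4 lines it was 2.25e-05 for each r. Leaving out the 2 libraries farthest from the median score gave r from 0.73 to 0.90. The highest *Ereg* level of each line was found in a library ranked among the 3 highest scores of that line, 427 CPM in *Nckap1l* wild type replicate 10, 276 CPM in *Dock2* wild type replicate 13, 182 CPM in *Gpsm3* wild type replicate 14 and 238 CPM in *Dok3* knockout replicate 12, which is 16.1 to 21.6 times the median of the line.

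*Nrg1*, the ligand of ERBB3 and ERBB4, rose by 0.47 ± 0.027 in *Nckap1l*, 0.41 ± 0.037 in *Dock2*, 0.38 ± 0.031 in *Gpsm3* and 0.44 ± 0.025 in *Dok3* (slope ± SE; adjusted p from 3.16e-20 to 2.82e-12). Its r with the score was 0.93, 0.82, 0.87 and 0.92 (permutation p = 1e-05 each, adjusted 2.25e-05), and rho was 0.88, 0.76, 0.67 and 0.78. It ran from 3.94 to 82.8 CPM over the series. The long noncoding gene *Gm26578*, on the opposite strand, overlaps *Nrg1*. How reads were assigned to strands is not given in the sources used here, so reads of the overlap cannot be told apart.

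The EGFR ligands with an immediate response to growth factors, *Areg* and *Hbegf*, rose less steeply and less evenly. *Areg* rose by 0.25 ± 0.063 in *Nckap1l*, 0.43 ± 0.047 in *Dock2* and 0.15 ± 0.039 in *Dok3*, and its slope in *Gpsm3* was 0.12 ± 0.059 (adjusted p = 0.075). *Hbegf*, a gene on chromosome 18, rose in all 4 lines, by 0.34 ± 0.067, 0.35 ± 0.044, 0.22 ± 0.047 and 0.15 ± 0.039 in *Nckap1l*, *Dock2*, *Gpsm3* and *Dok3*. In the *Dok3* line neither rise passed without the libraries rich in epidermis markers. There the slope of *Areg* was 0.054 (adjusted p = 0.27) and that of *Hbegf* 0.022 (adjusted p = 0.65). In *Nckap1l*, where 16 libraries remain without them, the slopes were 0.26 (adjusted p = 0.078) and 0.33 (adjusted p = 0.06). For r with the score, *Areg* had 0.59, 0.70, 0.30 and 0.45 and *Hbegf* 0.64, 0.60, 0.58 and 0.40 in the 4 lines, with adjusted permutation p up to 0.0672 for *Areg* and 0.00644 for *Hbegf*. Their rho was 0.71, 0.49, 0.23 and 0.34 for *Areg* (raw permutation p = 3e-05, 0.00097, 0.155 and 0.0185) and 0.73, 0.42, 0.69 and 0.33 for *Hbegf* (raw permutation p = 1e-05, 0.00579, 1e-05 and 0.0228). Among the highest libraries, *Areg* and *Hbegf* shared *Dock2* wild type replicate 13, with 103 and 77.9 CPM, and *Dok3* knockout replicate 15, with 33.3 and 54.6 CPM.

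*Btc* passed in 2 lines and *Tgfa* in 1. *Btc* rose in *Dock2* (0.21 ± 0.041) and *Dok3* (0.10 ± 0.024) and had slopes of 0.039 ± 0.040 in *Nckap1l* and 0.036 ± 0.034 in *Gpsm3*. In *Dock2* its rise rested on wild type replicate 13, at 46.4 CPM the highest *Btc* level of the series, since the slope without that library was 0.084 (adjusted p = 0.16). *Tgfa* rose only in the *Dock2* fit, by 0.092 ± 0.019, with 0.065 (adjusted p = 0.015) without the same library, and its slopes were 0.025 ± 0.022 in *Nckap1l*, -0.024 ± 0.017 in *Gpsm3* and 0.0094 ± 0.020 in *Dok3*. In *Dok3* knockout replicate 17, with the highest score of the series at 7.84, *Tgfa* was at its lowest, 13.8 CPM, and without that library its slope in *Dok3* passed the test at 0.038 (adjusted p = 0.0404). The r of *Btc* with the score was 0.17, 0.48, 0.14 and 0.52 and that of *Tgfa* 0.16, 0.57, -0.28 and -0.06 in *Nckap1l*, *Dock2*, *Gpsm3* and *Dok3*, of which those of *Btc* in *Dock2* and *Dok3* and of *Tgfa* in *Dock2* passed an adjusted permutation p of 0.05. In *Dok3* the r of *Btc* lay above those of *Areg* and *Hbegf*, and this order was not tested. The rho in *Dock2* was 0.18 for *Btc* (permutation p = 0.247) and 0.25 for *Tgfa* (permutation p = 0.11), and r without the 2 libraries farthest from the median score fell to 0.24 and 0.32. *Epgn* could be tested in *Nckap1l*, where it rose by 0.41 ± 0.087 (adjusted p = 3.20e-04). It stayed at or below 4.09 CPM in every library, so its r of 0.57 to 0.77 with the score rests on few reads.

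The receptors moved in opposite directions. *Egfr* rose by 0.18 ± 0.032, 0.19 ± 0.019, 0.16 ± 0.023 and 0.17 ± 0.024 in *Nckap1l*, *Dock2*, *Gpsm3* and *Dok3* (slope ± SE; adjusted p from 6.09e-11 to 5.15e-05), with r of 0.69, 0.74, 0.74 and 0.71 and rho of 0.70, 0.67, 0.73 and 0.79 (permutation p up to 4e-05). *Erbb2* fell by 0.12 ± 0.020, 0.10 ± 0.022, 0.054 ± 0.023 and 0.15 ± 0.017 in the same order, with r of -0.77, -0.62, -0.42 and -0.83 (adjusted permutation p up to 0.00832) and rho of -0.75, -0.51, -0.19 and -0.76 (permutation p up to 0.243). It was the one member that fell in each line. The *Gpsm3* fall (adjusted p = 0.0469) rested on 2 libraries, since without those farthest from the median score the slope was -0.0036 and r was -0.09. The lowest *Erbb2* level, 66.8 CPM, was that of *Dok3* knockout replicate 17, and *Nckap1l* wild type replicate 10, with the highest score of its line, had the lowest of that line at 88.4 CPM. *Erbb2* and *Mien1* overlap on opposite strands, with the same limit on strand as for *Nrg1*.

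**Figure D3:**
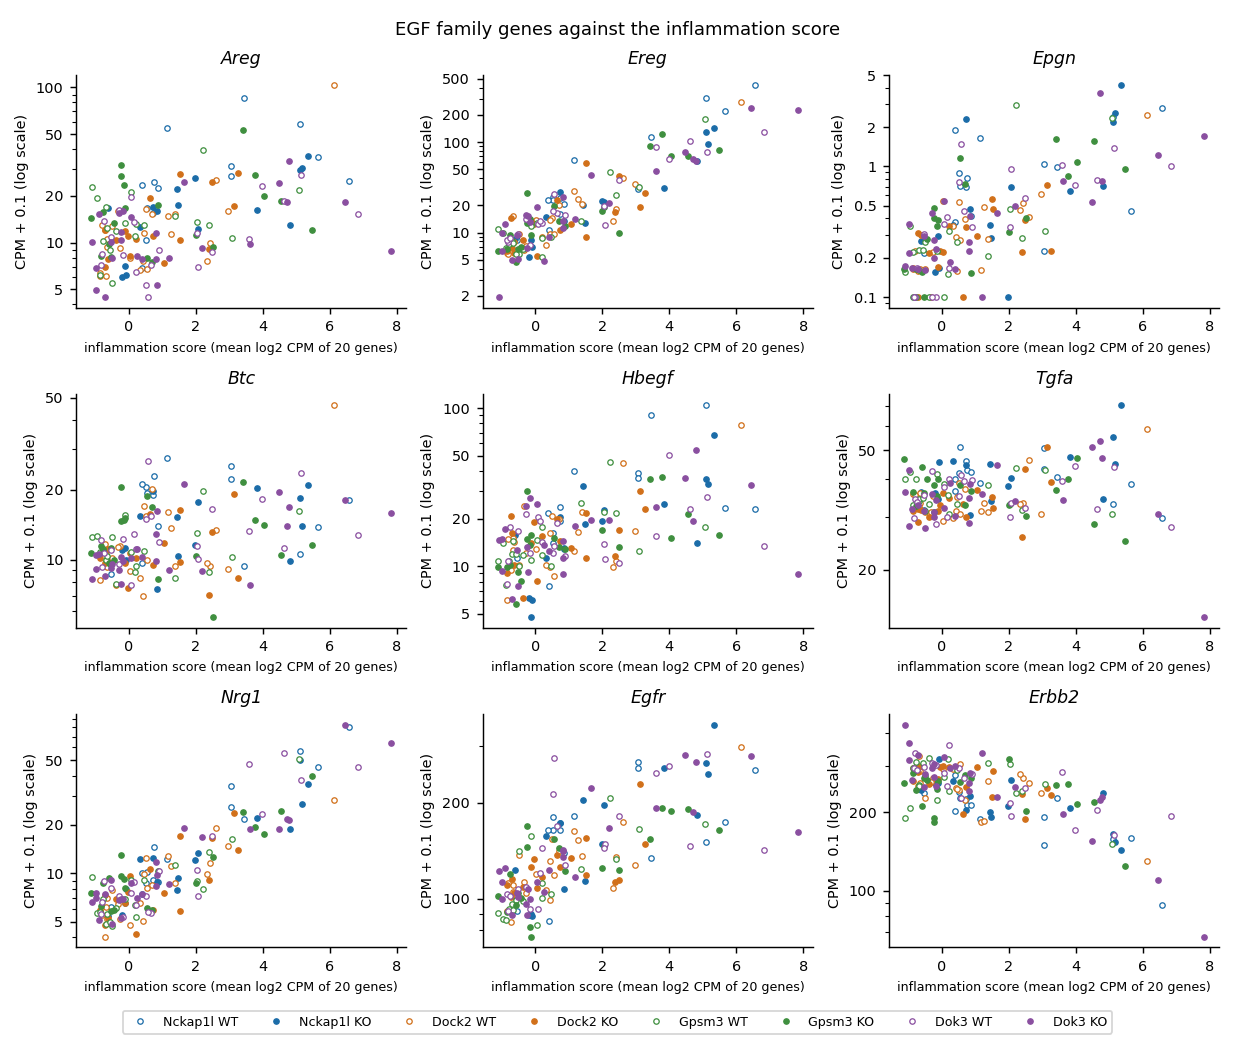
Each panel plots 1 gene against the inflammation score (mean log2 CPM of 20 genes) in 160 libraries, with CPM plus 0.1 on a log scale, colours for lines, open points for wild type and filled points for knockout. *Ereg* and *Nrg1* rise steadily along the score, *Erbb2* falls to 66.8 CPM at the highest score, and *Tgfa* lies between 13.8 and 70.5 CPM.

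The sample numbers in the labels fall into 3 runs in *Nckap1l*, 2 in *Gpsm3* and 2 in *Dok3*, and the relations were recomputed within each run, while *Dock2* had a single run. For *Ereg* r lay between 0.82 and 0.95 and for *Nrg1* between 0.80 and 0.94 in all 7 runs. *Erbb2* had -0.75, -0.75 and -0.87 in *Nckap1l* and -0.86 and -0.78 in *Dok3*, but 0.14 and -0.77 in the 20 libraries of each *Gpsm3* run, so the *Gpsm3* relation did not hold in the first run. *Btc* in *Dok3* had 0.75 in the first run and 0.0006 in the second, and *Egfr* there 0.82 and 0.36. Neither relation passed in that second run (permutation p = 0.998 for *Btc* and 0.149 for *Egfr*). *Egfr* lay between 0.67 and 0.92 in the other 5 runs. For *Areg* r was 0.35 to 0.86 over the 7 runs and did not pass in 5 of them (adjusted permutation p from 0.0933 to 0.419). For *Hbegf* it was 0.40 to 0.88 and did not pass in 2 (adjusted permutation p = 0.159 and 0.366). *Tgfa* had -0.72 in the second *Gpsm3* run (adjusted permutation p = 0.000891) and 0.13 in the first.

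Cell type markers moved along the same score. All 5 absorptive colonocyte markers fell and all 6 fibroblast and all 6 macrophage markers rose in each line, and of the 11 gut epithelium markers 7 fell in *Nckap1l*, 1 in *Gpsm3* and 9 in *Dok3* while 4 rose in *Dock2*. In *Nckap1l*, *Dock2*, *Gpsm3* and *Dok3*, 4, 4, 4 and 3 of 4 T cell markers and 3, 0, 4 and 0 of 4 B cell markers rose. Of 7 smooth muscle markers 3, 0, 6 and 0 fell, and of the striated muscle markers 0 of 9, 1 of 7, 0 of 7 and 8 of 9 rose. The summed levels over the series ran from 129 to 8368 CPM for absorptive colonocyte, 1165 to 21360 CPM for fibroblast and 80.7 to 1242 CPM for macrophage markers, with none of these genes at a median of 0. In whole tissue, fewer cells of a type and less RNA per cell cannot be told apart. With gut epithelium and smooth muscle marker scores in the model, *Ereg* had slopes of 0.57 to 0.77 and *Nrg1* of 0.43 to 0.51 over the 4 lines. *Erbb2* had -0.15, -0.10, -0.052 and -0.13 in *Nckap1l*, *Dock2*, *Gpsm3* and *Dok3*, of which the *Gpsm3* value no longer passed (adjusted p = 0.14). Scores of absorptive colonocyte, fibroblast, macrophage, T cell, B cell and striated muscle markers were not put in the model, so their part was not tested. With the gut epithelium and smooth muscle scores 4 members rose in *Nckap1l*, against 6 without them, and 6 rose in *Gpsm3*, against 4. Of all genes, 34.5% and 44.3% were called there. *Epgn* was among the members that lost their rise in *Nckap1l*, with a slope of 0.070 (adjusted p = 0.80). Epidermis markers rose with the score in *Dock2* and *Dok3*, in each 10 of 10 tested, in *Gpsm3* 4 of 7 and in *Nckap1l* 0 of 12.

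The slope on an epidermis score, the mean log2 CPM of the 12 epidermis genes, was fitted beside the inflammation score. Of the members tested, 4 of 9 passed in *Nckap1l*, 5 of 8 in *Dock2*, 3 of 8 in *Gpsm3* and 4 of 8 in *Dok3*, against 51.5%, 39.8%, 30.5% and 51.9% of all genes, of which 25.1%, 20.6%, 17.1% and 25.4% of those tested rose and 26.4%, 19.2%, 13.4% and 26.5% fell. *Btc* rose in each line, by 0.099 ± 0.014, 0.070 ± 0.025, 0.072 ± 0.023 and 0.087 ± 0.013 per log2 unit, and so did *Egfr*, by 0.080 ± 0.011, 0.043 ± 0.010, 0.048 ± 0.016 and 0.086 ± 0.013. The highest *Btc* levels in *Nckap1l* and *Dok3*, 27.4 and 26.5 CPM, were in libraries with epidermis scores of 8.61 and 9.44. *Tgfa* rose in *Nckap1l* (0.040 ± 0.0098), *Dock2* (0.037 ± 0.011) and *Dok3* (0.040 ± 0.013), and *Hbegf* in *Dock2* (0.085 ± 0.028) and *Dok3* (0.081 ± 0.030). *Epgn* rose in *Nckap1l* (0.14 ± 0.049). *Ereg*, *Areg* and *Erbb2* passed in no line, with slopes from -0.017 to 0.045. *Nrg1* rose in *Dock2* (0.065 ± 0.020) and fell in *Gpsm3* (-0.084 ± 0.028), and this difference was not tested. Libraries had epidermis scores of at most 2.50 or at least 5.75, so a slope mostly compares both kinds of library. In *Nckap1l* the libraries rich in epidermis markers came nearly all from the first run of sample numbers. The run was not in the model, so the epidermis slopes of that line and a difference between runs can hardly be told apart. Other tissues moved with the same score. Of the 11 gut epithelium markers 11 fell in *Nckap1l*, 9 in *Dock2*, 10 in *Gpsm3* and 11 in *Dok3*, all 4 B cell markers fell in each line, and all striated muscle markers that were tested rose (9, 7, 7 and 9). The part of these tissues in the slopes of *Btc* and *Egfr* was not tested.

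**Figure D4:**
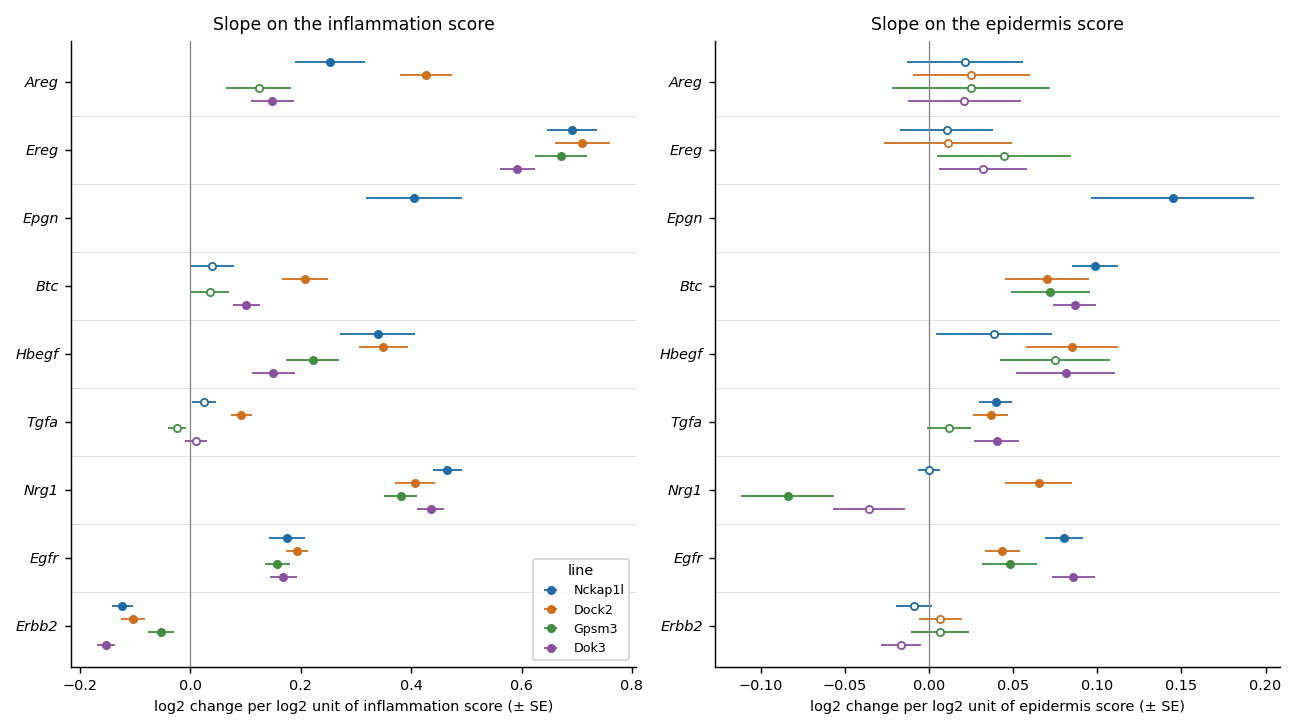
The panels plot the slope of each gene on the inflammation score (left) and on the epidermis score fitted beside it (right), in log2 change per log2 unit of score with bars of 1 SE, in 1 colour for each line. Filled points passed an adjusted p of 0.05. *Ereg* has slopes of 0.59 to 0.71 on inflammation and none that passed on epidermis, while *Btc* and *Egfr* pass on epidermis in each line.

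The slopes of several members were unequal among the lines. In a fit over 160 libraries with 1 slope per line, edgeR's F-test called 8.08% of 19829 genes and 4 members, *Areg* (adjusted p = 0.0228), *Tgfa* (0.0335), *Erbb2* (0.0460) and *Btc* (0.0489). The *Dock2* line had the steepest rise of *Areg*, *Btc* and *Tgfa* and the *Dok3* line the steepest fall of *Erbb2*. These calls depended on single libraries, and leaving out each of the 2 libraries named next was an alternative chosen after seeing the data. Without *Dock2* wild type replicate 13 only *Erbb2* passed (adjusted p = 0.0356), and *Areg*, *Tgfa* and *Btc* had 0.39, 0.24 and 0.56. Without *Dok3* knockout replicate 17 *Tgfa* (0.0248) and *Areg* (0.0475) passed, and without the 8 libraries under 10000000 counts none did. Of all genes, 5.15%, 4.82% and 4.56% passed in these fits, in the same order. With the epidermis score in the model 5 members passed, as did 16.7% of all genes. *Ereg*, *Nrg1* and *Egfr*, with adjusted p of 0.49, 0.48 and 0.90, did not pass in the main fit, and neither did *Hbegf* and *Epgn*. This does not show that their slopes were equal. For *Hbegf* the adjusted p of the F-test ran from 0.0048 to 0.50 over 9 alternatives.

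Across libraries the members formed pairs that moved together. Over 160 libraries, after the mean of each line, genotype and sex was removed, 14 of 36 pairs had r above 0.5 and 4 below -0.5. The closest were *Ereg* and *Nrg1* (r = 0.88, rho = 0.82), *Areg* and *Hbegf* (r = 0.81, rho = 0.74), *Ereg* and *Epgn* (r = 0.75, rho = 0.72) and *Ereg* and *Egfr* (r = 0.74, rho = 0.75), and the most opposed was *Ereg* and *Erbb2* (r = -0.72, rho = -0.62). The permutation p was 1e-05 for r and rho of each of these pairs, the smallest possible, and 1.12e-05 for r and 1.38e-05 for rho after adjustment over 36 pairs. Leaving out the 2 libraries farthest from the median of the first gene gave 0.87, 0.78, 0.73, 0.72 and -0.69, and leaving out those rich in epidermis markers 0.91, 0.80, 0.78, 0.76 and -0.68. When the inflammation and epidermis scores of each line were removed too, 2 pairs kept r above 0.5, *Areg* and *Hbegf* with 0.76 and *Areg* and *Ereg* with 0.53, and none was below -0.5. *Ereg* and *Nrg1* then had 0.42 and *Ereg* and *Erbb2* -0.29. *Tgfa* was near 0 with *Ereg* (r = 0.09, permutation p = 0.253) and *Nrg1* (r = 0.06, permutation p = 0.476).

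**Figure D5:**
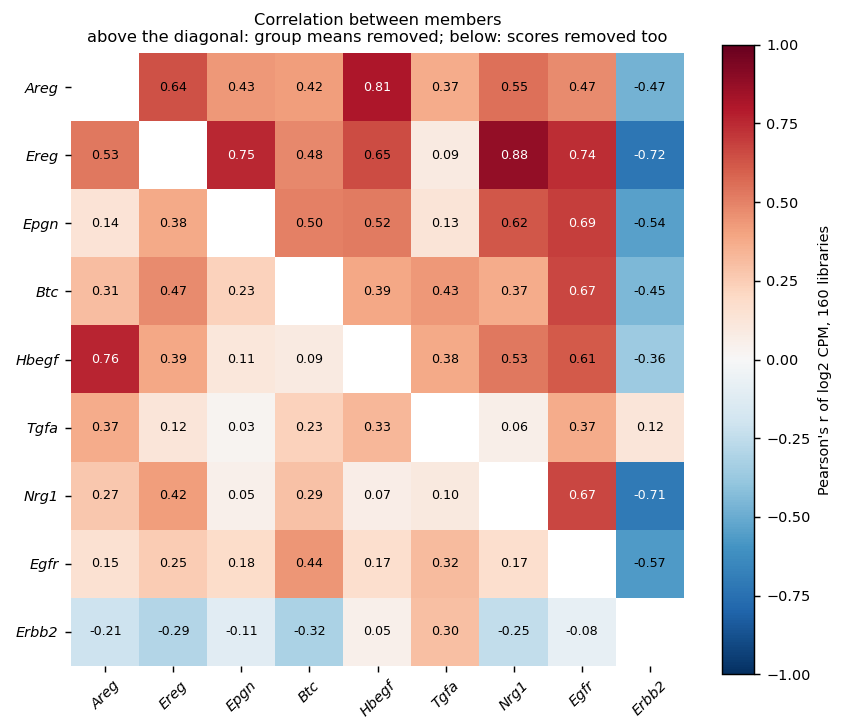
Squares give Pearson's r between the log2 CPM of 2 genes over 160 libraries, above the diagonal with group means removed and below it with the inflammation and epidermis scores of each line removed as well. *Ereg* with *Nrg1* goes from 0.88 above to 0.42 below, whereas *Areg* with *Hbegf* stays at 0.76.

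The genes most alike to each member were taken over the same 160 libraries from 14380 other genes (14381 for *Epgn*) with a mean log2 CPM of at least 1, by Pearson's r with group means removed. *Ereg* lay closest to *Adamts1* (r = 0.94), which encodes a secreted metalloprotease, to the phosphodiesterase *Pde4b* (0.93) and to the urokinase receptor *Plaur* (0.91). *Nrg1* lay closest to *Gm26578* (0.95), which overlaps it, to the growth factor *Hgf* (0.91) and to *Smim3* (0.90). *Areg* lay closest to *Hbegf* (0.81), to the ERK phosphatase *Dusp6* (0.79) and to *Ccdc71l* (0.75), and *Hbegf* to *Areg* (0.81), the ephrin receptor *Epha2* (0.76) and the transcription factor *Egr1* (0.73). For *Erbb2* they were the partner receptor *Erbb3* (0.92), *Etl4* (0.90) and the adaptor *Grb7* (0.90), and for *Egfr* *Egfros* (0.89), the kinase *Map2k4* (0.88) and *Sfn* (0.88), which encodes stratifin. *Btc* (*Ppp1r2*, 0.80), *Tgfa* (*Mall*, 0.74) and *Epgn* (*St3gal1*, 0.78) had looser neighbours. These values describe libraries that share their inflammation and tissue makeup.

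The rest of the pathway was described with a list of 37 genes, of which 36 passed the filter in each line. None was called between knockout and wild type in any line by edgeR, and the median log2 fold change of the list lay between -0.036 and 0.035, beside medians of all genes between -0.0028 and 0.0083. The lowest p in each line belonged to the ubiquitin ligase *Cblb* in *Nckap1l* (0.20 ± 0.076), *Egf* itself in *Dock2* (-0.61 ± 0.23), *Dusp6* in *Gpsm3* (0.41 ± 0.15) and *Rhbdf1* in *Dok3* (-0.15 ± 0.083), as log2 fold change ± SE with adjusted p from 0.74 to 1.00. Along the inflammation score 19 genes rose and 5 fell in *Nckap1l*, 21 and 6 in *Dock2*, 13 and 8 in *Gpsm3* and 19 and 8 in *Dok3*, beside 47.9%, 55.3%, 53.9% and 63.4% of all genes called in either direction, with list medians of 0.047, 0.063, 0.022 and 0.045. By role, the shedding genes *Adam10*, *Adam17*, *Rhbdf1* and *Rhbdf2* gave 3, 4, 3 and 3 rises and no fall. Of the 9 transcriptional targets 6, 7, 5 and 7 rose and 1, 0, 0 and 1 fell. The 13 feedback inhibitors were split, with 7, 7, 3 and 5 rises and 3, 4, 6 and 5 falls. *Erbb3*, the other receptor that could be tested, fell in all lines but *Gpsm3*.

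Of the list genes with the lowest p, the early response gene *Ier3* rose in each line, by 0.42 ± 0.033, 0.45 ± 0.036, 0.31 ± 0.029 and 0.46 ± 0.028 per unit of the inflammation score in *Nckap1l*, *Dock2*, *Gpsm3* and *Dok3*. *Adam17*, whose product cuts several of these ligands from the cell surface, rose by 0.13 ± 0.010 in *Nckap1l* and 0.12 ± 0.0080 in *Dok3*. Its partner *Rhbdf2*, which carries the protease to the cell surface, rose by 0.18 ± 0.016 in *Dock2*, 0.17 ± 0.018 in *Gpsm3* and 0.19 ± 0.014 in *Dok3*. The receptor inhibitor *Lrig3* fell by 0.20 ± 0.017 in *Gpsm3*. Only the 3 list genes of lowest p are given for each line and score, so a gene may have moved in an unnamed line too. *Adam17* did so in *Dock2*, where all 4 shedding genes rose. On the epidermis score, on which 17.1% to 25.4% of all genes rose, 3 of the other 4 ligands *Egf*, *Nrg2*, *Nrg3* and *Nrg4* rose in each line, among them *Nrg4* by 0.13 ± 0.016 in *Nckap1l*, 0.18 ± 0.018 in *Gpsm3* and 0.22 ± 0.019 in *Dok3* and *Egf* by 0.30 ± 0.027 in *Dok3*.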

How the data were processed

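Distal colon RNA was sequenced from 160 mice as ribosomal RNA-depleted, stranded libraries. The authors aligned reads with STAR to mm10 and counted them per Ensembl gene with featureCounts of Subread, and they deposited raw counts, 1 file per sample. Tool versions and the strand setting of the counting are not given in the sources used here. The counts were used as deposited, and 37607 of 39179 genes (96.0%) were named through the annotation. CPM were computed with TMM factors over all samples, and levels between genes were compared per kilobase of merged exons. Differences were tested with edgeR 4.0.16 (glmQLFit and glmQLFTest) in R 4.3.3 after filterByExpr, with Benjamini-Hochberg adjustment over all genes and a threshold of 0.05, and with sex as a covariate in *Nckap1l* and *Dock2*. Counts of called genes for inflammation slopes leave out the genes of the score. Scores are means of log2 CPM with a prior count of 2. DESeq2 1.42.0, limma-voom 3.58.1 and sva 3.50.0 gave alternatives. Correlations have two-sided permutation p-values from 100000 resamples (numpy 2.4.6, with ranks from scipy 1.17.1). These were adjusted over 36 relations with the score and over 36 pairs of members. Under an alternative, such as within a run of sample numbers, they were adjusted over the relations of that setting. The knockout fit of each line and a slope fit in *Dock2* were tested on simulated data with known changes, and the other steps were not. Every member is named, with the 3 genes of lowest p in the pathway list per comparison and the 3 genes most alike to each member. The members and gene lists were chosen with earlier results of these data known. The labels give samples and not how mice were related, so p-values measure the spread between these samples, which may share litters. Libraries held 4344988 to 19993833 counts. Errors are standard errors of the fits over mice, and the limit of 3 counts covers counting error only.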

Additional observations from a re-analysis of the deposited data

Results flagged for a closer look

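A difference between lines in the slope on the inflammation score, by edgeR's F-test over 160 libraries, marked out 4 members. The adjusted p was 0.02281 for *Areg*, whose slopes were 0.25, 0.43, 0.12 and 0.15 in *Nckap1l*, *Dock2*, *Gpsm3* and *Dok3*. It was 0.04888 for *Btc*, with slopes of 0.039, 0.21, 0.036 and 0.10, and 0.03349 for *Tgfa*, with 0.025, 0.092, -0.024 and 0.0094. For *Erbb2* it was 0.04597, with slopes of -0.12, -0.10, -0.054 and -0.15. *Dock2* wild type replicate 13 was left out as an alternative chosen after seeing the data. Without it the adjusted p was 0.39 for *Areg*, 0.56 for *Btc*, 0.24 for *Tgfa* and 0.0356 for *Erbb2*. That library held 9863590 counts and the highest inflammation score of its line, and it had the highest level of its line for 8 of the 9 members. *Dok3* also differs from the other lines in strain and DSS dose and *Nckap1l* in collection day, which cannot be told apart from the line. *Dock2* and *Gpsm3* share all 3 in the labels, but *Gpsm3* mice were all male and *Dock2* mice of both sexes. Groups of more than 10 samples were not searched for single outlying samples, and every group here is larger.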

How the results depend on the processing

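Of single member values from the model fits that passed the test, 381 were recomputed under an alternative, of which 341 passed again in the same direction, 40 did not and 0 turned. All member levels moved by less than 1 SD. The number of members called moved by more than 1.5 times in these cases, and the cause was not tested in any. In the *Nckap1l* inflammation slope it was 4 of 7 in wild type only and 4 without the libraries rich in epidermis markers, which leave fewer samples. In the epidermis slope without the inflammation score it was 1 in *Gpsm3* and 7 in *Dok3*. For the knockout effect by line it was 3 without the libraries rich in epidermis markers, and for the inflammation slope by line 2 without *Dok3* knockout replicate 17, 1 without *Dock2* wild type replicate 13, 0 without libraries under 10000000 counts and 1 in the C57BL6/J lines only.

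In 64 cases a fitted value that had not passed, or a correlation, changed its sign. With the run of sample numbers in the model, the knockout difference in *Nckap1l* was 0.18 for *Epgn* and the knockout difference in *Dok3* was -0.024 for *Ereg*. Without the libraries rich in epidermis markers, the knockout difference in *Nckap1l* was -0.34 for *Egfr*, the knockout difference in *Dok3* was -0.23 for *Ereg* and -0.074 for *Areg*, the inflammation slope in *Nckap1l* was -0.023 for *Tgfa*, the inflammation slope in *Dok3* was -0.023 for *Tgfa* and r with the score was -0.27 for *Tgfa* in *Nckap1l*. In males only, the knockout difference in *Nckap1l* was -0.043 for *Tgfa* and -0.017 for *Egfr* and the inflammation slope in *Nckap1l* was -0.0078 for *Tgfa*. With DESeq2, the knockout difference in *Dock2* was 0.19 for *Ereg*. With limma-voom, the knockout difference in *Dock2* was 0.030 for *Areg*, 0.020 for *Nrg1*, 0.0043 for *Egfr* and 0.020 for *Hbegf*, the knockout difference in *Gpsm3* was -0.0014 for *Hbegf*, the knockout difference in *Dok3* was -0.30 for *Ereg* and -0.035 for *Erbb2*, the epidermis slope in *Nckap1l* was -0.0056 for *Ereg* and -0.00055 for *Nrg1*, the epidermis slope in *Dock2* was -0.041 for *Ereg*, the epidermis slope in *Gpsm3* was -0.011 for *Areg* and the inflammation slope in *Dok3* was -0.0089 for *Tgfa*. With a filter of at least 1 count in total, the knockout difference in *Dock2* was 0.0043 for *Nrg1*. With 2 surrogate variables, the knockout difference in *Dock2* was 0.079 for *Nrg1*, 0.039 for *Egfr* and 0.0062 for *Hbegf*, the knockout difference in *Gpsm3* was -0.077 for *Hbegf* and the knockout difference in *Dok3* was -0.0064 for *Ereg*, 0.0059 for *Egfr* and -0.093 for *Erbb2*. With the inflammation score in the model, the knockout difference in *Dock2* was 0.025 for *Nrg1* and 0.00096 for *Egfr*, the knockout difference in *Gpsm3* was -0.096 for *Hbegf* and the knockout difference in *Dok3* was -0.10 for *Ereg* and -0.049 for *Erbb2*. With the epidermis score in the model, the knockout difference in *Dock2* was 0.0019 for *Tgfa*, 0.065 for *Nrg1* and 0.013 for *Egfr*, the knockout difference in *Dok3* was 0.0064 for *Tgfa*, 0.015 for *Egfr* and -0.055 for *Erbb2* and the inflammation slope in *Dok3* was -0.016 for *Tgfa*. Without libraries under 10000000 counts, the knockout difference in *Dock2* was 0.19 for *Ereg*, 0.21 for *Areg*, 0.017 for *Tgfa*, 0.14 for *Nrg1*, 0.066 for *Egfr* and 0.065 for *Hbegf*, the knockout difference in *Gpsm3* was -5.9e-05 for *Tgfa* and the inflammation slope in *Dok3* was -0.0036 for *Tgfa*. Without the libraries whose *Gpsm3* level goes against the label, the knockout difference in *Gpsm3* was -0.0038 for *Tgfa*. Without *Dok3* knockout replicate 17, the knockout difference in *Dok3* was -0.15 for *Ereg* and 0.0015 for *Tgfa*. In wild type only, the inflammation slope in *Nckap1l* was -0.0061 for *Btc* and -0.033 for *Tgfa*. Without the inflammation score in the model, the epidermis slope in *Dock2* was -0.011 for *Erbb2* and the epidermis slope in *Dok3* was 0.11 for *Nrg1*. Within run 2 of sample numbers, r with the score was -0.43 for *Tgfa* in *Nckap1l*. Within run 1 of sample numbers, r with the score was -0.39 for *Btc* in *Nckap1l*, r with the score was 0.13 for *Tgfa* in *Gpsm3* and r with the score was 0.14 for *Erbb2* in *Gpsm3*. Without the 2 samples farthest from the median score, r with the score was 0.41 for *Tgfa* in *Dok3*.

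The number of all genes called between knockout and wild type was 21, 70, 4 and 3 with DESeq2 in *Nckap1l*, *Dock2*, *Gpsm3* and *Dok3*, and 27, 31, 32 and 15 with a filter of at least 1 count. With 2 surrogate variables it was 82 in *Nckap1l* and 93 in *Dock2*. In *Dock2* it was also 0 with limma-voom, 1 with at least 10 counts in every sample, 21 with the epidermis score, 1 at an adjusted p of 0.01, 79 without libraries rich in epidermis markers and 1 in males. In *Nckap1l* it was 2 with the inflammation score, and in *Gpsm3* 0 with at least 10 counts in every sample and 2 without libraries rich in epidermis markers or against the *Gpsm3* label. In wild type only, 4855 genes in *Nckap1l* and 5590 in *Dok3* had a called inflammation slope. Knockout effects that differed by line numbered 1 with limma-voom, 244 with the epidermis score and 390 without libraries rich in epidermis markers. Inflammation slopes that differed by line numbered 3310 with the epidermis score, 956 without *Dok3* knockout replicate 17, 1022 without *Dock2* wild type replicate 13, 902 without libraries under 10000000 counts and 398 in the C57BL6/J lines.

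No paired analysis was possible because the replicate numbers were given in accession order and name samples only. For *Nckap1l*, leaving out libraries under 10000000 counts was not run since it has none, and in *Nckap1l* and *Dock2* no library went against its labelled sex. Depth limits *Epgn* most, with 3 or fewer counts in 81 of 160 libraries.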
